A study of Mus musculus with 4 samples.

Results

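The 10 genes described here encode S100 proteins and made up 10 of the 30360 genes in the deposited table. They were taken by symbol: S100a8, S100a9, S100a1, S100a4, S100a6, S100a10, S100a11, S100a13, S100a14 and S100a16. The set was drawn up with measured values in view, since earlier work on the same counts had shown S100a8 and S100a9 to differ between the genotypes in epithelial cells. The levels and differences of the members are therefore a description, and no test is attached to them.

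S100 proteins are small calcium-binding proteins with paired EF-hand loops, and most work as dimers that open a binding face for a partner protein when calcium is bound. S100A8 and S100A9 join to form calprotectin, a complex abundant in neutrophils that withholds zinc and manganese from microbes and signals through receptors such as TLR4 and RAGE once it leaves the cell. Calprotectin in stool is a familiar sign of gut inflammation, and inflamed or stratified epithelium can make both subunits itself.

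Colonoids, epithelial cultures grown in a gel from distal colon, were the material, and mesenchymal cells had grown with them. The donors were wildtype (C57BL/6) mice and mice without Tnfrsf1b in any cell type (Tnfr2-/-), so that epithelium and mesenchyme alike lack TNF receptor 2. Mice were 16 weeks old per the labels. All cultures were at passage 5 and were collected on day 7 after it, either untreated or, between day 1 and day 6, with 20 ng/ml of the cytokine TNF. Each of the 4 conditions had 1 library, so a difference between conditions has no replicate check, and no p-value is given. Below, 4 values in a row give wildtype before Tnfr2-/- and, within each genotype, untreated before TNF.

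The 6155 cells carried between 44547639 and 87228093 unique molecular identifiers (UMIs) per library. The deposited annotation put 4172 cells in 7 epithelial classes and 1948 in 4 mesenchymal classes, and 35 had no class. Epithelial cells numbered 1128, 1163, 1023 and 858, and mesenchymal cells 1430, 306, 90 and 122. The labels held against the markers: 6 epithelial genes (Epcam, Krt8, Krt18, Cdh1, Vil1, Cldn7) summed to 8394 to 10486 UMIs per 1000000 (CPM) in epithelial cells, and 7 mesenchymal genes summed to 5.21 to 22.8 CPM there. Barcodes were shared between libraries by 6 cells. Tnfrsf1b was still counted in Tnfr2-/- epithelium at 1.82 and 6.89 CPM, against 4.17 and 12.1 CPM in wildtype, and the place of the deletion relative to the counted 3' end is not known here, so these counts do not check the genotype. Xist, transcribed from an inactive X chromosome, stood at 558 and 683 CPM in wildtype epithelium and at 0.158 and 0.101 CPM in Tnfr2-/- epithelium, so genotype and the sex of the donor cannot be told apart. Ddx3y, on the Y chromosome, was at 1.61, 8.92, 0.0197 and 0.0251 CPM in epithelium and at 0, 0.204, 74.9 and 70.0 CPM in mesenchyme. Tnfr2-/- epithelium thus held almost none of either gene while its mesenchyme held Ddx3y, and whether the epithelium and mesenchyme of a library came from the same donor was not tested, which bears on each comparison between them.

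All 10 genes lie on chromosome 3 (GRCm38, GENCODE M21). S100a8 (ENSMUSG00000056054) spans chr3:90668978-90670035 on the plus strand and S100a9 (ENSMUSG00000056071) chr3:90692632-90695721 on the minus strand. S100a1 (chr3:90511034-90514392, minus strand) and S100a13 (chr3:90514435-90524581, plus strand) stand head to head, so that their starts are neighbours. S100a14, S100a16, S100a4 and S100a6 lie between these pairs, and S100a11 and S100a10 lie farther along the chromosome. RefSeq start windows of GRCm38.p6 were matched for 8 of the 10 members. S100a10 and S100a14 had none.

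The 250 bases before the starts of the calprotectin genes are shown because these genes differed most between the genotypes in epithelium, and the stretch between S100a1 and S100a13 because their RefSeq starts lie just outside its ends. RefSeq and GENCODE place some starts differently, so the S100a8 window and this stretch lie partly inside the GENCODE spans given above. Each is printed 5′ to 3′ on the strand of the gene, the last on the plus strand, and capitals mark the only motif match found among those searched. These are a TATA box (TATAAA) for S100a8 at chr3:90668821-90669070 (plus strand) and a C/EBP core (TTGCNNAA) for S100a9 at chr3:90695722-90695971 (minus strand). The stretch at chr3:90514331-90514434 has no capitals because it held none of the motifs.
S100a8: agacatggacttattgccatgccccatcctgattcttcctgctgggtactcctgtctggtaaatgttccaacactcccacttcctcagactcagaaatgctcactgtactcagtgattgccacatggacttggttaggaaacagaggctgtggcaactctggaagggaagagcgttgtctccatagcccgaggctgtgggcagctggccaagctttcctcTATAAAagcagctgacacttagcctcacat
S100a9: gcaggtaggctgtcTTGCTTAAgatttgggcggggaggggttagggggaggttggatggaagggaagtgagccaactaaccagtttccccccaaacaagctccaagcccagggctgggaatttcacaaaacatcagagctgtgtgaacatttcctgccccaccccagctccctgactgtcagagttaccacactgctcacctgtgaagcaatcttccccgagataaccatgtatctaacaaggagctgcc
S100a1 to S100a13: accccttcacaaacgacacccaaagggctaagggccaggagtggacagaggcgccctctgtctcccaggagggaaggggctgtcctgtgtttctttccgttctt

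Both strands were searched, over 32851 windows of 250 bases before RefSeq starts. TATAAA occurred in 12.4% of them and TTGCNNAA in 9.56%. The TATAAA of S100a8 began 30 bases before the start and the C/EBP core of S100a9 236 bases before it. The AP-1 site (TGANTCA), present in 6.75% of all windows, occurred at 2 places before S100a11 and 192 bases before 1 of the starts of S100a16. TATAAA was also found 31 bases before S100a4. The STAT letters (TTCNNNGAA, 7.02%) and the NF-kB motif (7.25%) had no match in any window of a member. These matches describe letters only, and nothing about binding was measured.

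S100a8, the calprotectin subunit that S100A9 partners, was near 0 in wildtype epithelium and plainly present in Tnfr2-/- epithelium. The epithelial sums held 8, 69, 3662 and 8637 UMIs of S100a8. Its levels were 0.159 CPM (0.0686 to 0.313), 1.67 CPM (1.30 to 2.11), 72.3 CPM (70.0 to 74.7) and 217 CPM (213 to 222), where the brackets are exact 95% Poisson intervals that cover counting error only. Both Tnfr2-/- libraries lay above both wildtype libraries. As a difference of log2(CPM + 1), Tnfr2-/- exceeded wildtype by 5.98 untreated and by 6.35 with TNF, which are linear ratios of 455 (231 to 1054) and 130 (103 to 167).

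S100a9, the larger subunit of calprotectin, followed the same order over a lower range. It had 0, 2, 1205 and 5029 epithelial UMIs. The 0 in wildtype untreated cells allows up to 0.0596 CPM (3 counts), and the other levels were 0.0484, 23.8 and 126 CPM. Untreated Tnfr2-/- epithelium was thus at least 399-fold higher than wildtype, while the ratio with TNF, 2614, rested on 2 wildtype UMIs and had an interval from 723 to 21593.

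A gene was counted as differing when both pairs of libraries differed by 2-fold or more with the same sign and each pair had a library at 20 CPM or more. S100a8 and S100a9 were the 2 of 9 members above this limit for genotype in epithelium, where 1.13% of all 5663 genes were higher in Tnfr2-/-. In the untreated pair alone 2.42% were. These are the values that brought the set together, and nothing is read from that count. No member was lower, against 1.41% of all genes. Genes within 5 Mb of S100a8, leaving out S100 genes, had median genotype differences of 0.04 untreated and -0.09 with TNF (70 genes, log2 scale), beside 0.10 and -0.12 over all genes.

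**Figure D1:**
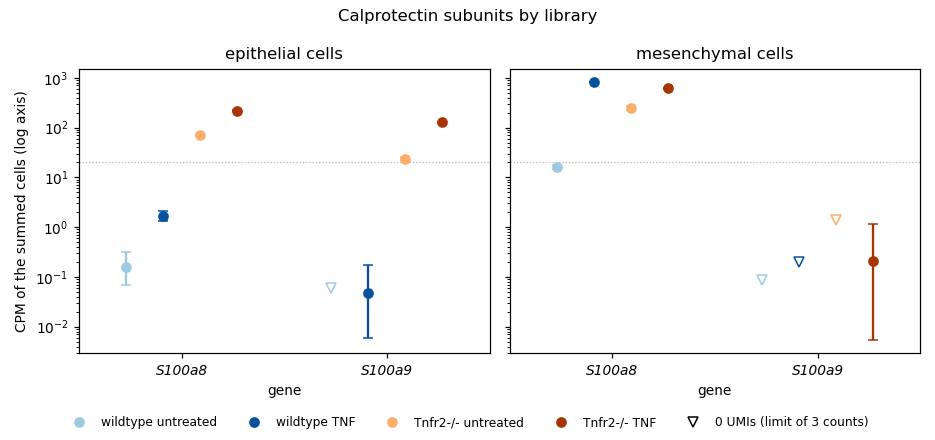
Levels of S100a8 and S100a9 in the summed epithelial cells (left) and mesenchymal cells (right) of each library, in CPM on a log axis, with exact 95% Poisson intervals. Open triangles mark sums of 0 UMIs at the limit of 3 counts, and the dotted line is 20 CPM. S100a8 reaches 827 CPM in wildtype TNF mesenchyme, while S100a9 is above 20 CPM only in Tnfr2-/- epithelium.

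The S100a8 and S100a9 transcripts of Tnfr2-/- epithelium came from few cells. In the untreated library 1 cell held 807 of the 1205 S100a9 UMIs (67.0%), and 10 cells held 98.3%. For S100a8 the top cell there held 913 UMIs (24.9%) and 4 cells reached the midpoint of the sum. With TNF, the top cell held 2335 S100a8 UMIs (27.0%) and 765 S100a9 UMIs (15.2%), and 3 and 5 cells reached the midpoint of these sums. Cells with at least 10 S100a8 UMIs numbered 24 and 42 in Tnfr2-/- epithelium and 0 in either wildtype epithelium.

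Leaving out, in each library, the 10 epithelial cells richest in the gene, a choice made after seeing the data, lowered S100a8 to 0, 1.30, 15.0 and 45.3 CPM and S100a9 to 0, 0, 0.422 and 15.0 CPM. The order of the libraries was kept. The log2 differences by genotype were then 4.0 untreated and 4.33 with TNF for S100a8, and 0.51 and 4.0 for S100a9. Under the 20 CPM minimum neither gene was then counted in both pairs. Without only the top cell of each library S100a8 was still counted, and S100a9, at 7.86 CPM in the untreated Tnfr2-/- library, was not.

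The share of cells with a UMI gave the same order at equal depth. After each cell was thinned to 5000 UMIs, S100a8 was found in 0.276%, 1.03%, 4.34% (3.16 to 5.81, Clopper-Pearson) and 7.92% (6.19 to 9.95) of epithelial cells, and without thinning in 0.621%, 5.42%, 8.11% and 18.4%. S100a9 was found in 0%, 0%, 0.606% and 2.60% after thinning and in 0%, 0.172%, 2.15% and 5.83% without it. Thinning left out 405 shallower cells, 298 of them in the wildtype TNF library. The most S100a8 UMIs in any 1 wildtype TNF epithelial cell was 4, and the share there was between 3.38% and 6.59% in the 5 epithelial classes with over 100 cells.

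Genes of mesenchymal cells were measured beside it, since those cells were rich in S100a8. The epithelial S100a8 level was 0.984%, 0.202%, 29.4% and 35.5% of the mesenchymal level in the same library. For the 7 mesenchymal marker genes this ratio was 0.0639% to 0.218%, 0.136% to 0.317%, 0% to 0.0926% and 0% to 0.142%. The 0.984% of untreated wildtype rested on 8 epithelial UMIs. Of the libraries, wildtype TNF alone had an S100a8 ratio within the range of these markers. In both Tnfr2-/- libraries it lay above that range. The part of free RNA in these counts was not tested.

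The marker list of neutrophils and other myeloid cells, which are the richest known source of calprotectin, was low in epithelium apart from Ly6g. The 14 genes summed to 287, 189, 62.1 and 91.5 CPM, of which Ly6g alone made up 286, 188, 58.0 and 83.5 CPM. Csf1r was at 0.934, 1.02, 3.71 and 7.52 CPM, and Elane, Ngp, Camp and Tyrobp had no UMI. Ly6g was lower in Tnfr2-/- in both pairs, opposite to S100a8.

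Among epithelial classes, calprotectin stood highest in the deposited class Progenitor.2 of the Tnfr2-/- libraries. In Progenitor.2 the S100a8 level was 1.19, 1.66, 312 and 255 CPM, from 2, 21, 3091 and 8611 UMIs. S100a9 had 0, 0, 1149 and 5027 UMIs there, or 116 and 149 CPM in Tnfr2-/-. Progenitor.2 made up 62, 273, 233 and 716 cells of the epithelium. In Progenitor.1, with 546, 335, 647 and 95 cells, S100a8 was at 0.145, 1.15, 15.5 and 2.15 CPM and S100a9 at 0, 0.110, 1.52 and 0.195 CPM. Within Progenitor.2, where 1.10% of all 5456 genes were higher in Tnfr2-/-, both subunits were counted as higher. Neither gene reached 20 CPM in any library of Progenitor.1. Outside these classes S100a8 passed 20 CPM in epithelium in Secretory-Reg4-Ang4 of the wildtype TNF library, at 29.4 CPM from 15 UMIs with at most 1 in a cell, and in enteroendocrine cells of Tnfr2-/- TNF, at 30.8 CPM from 15 UMIs, of which 14 were in 1 cell.

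**Figure D2:**
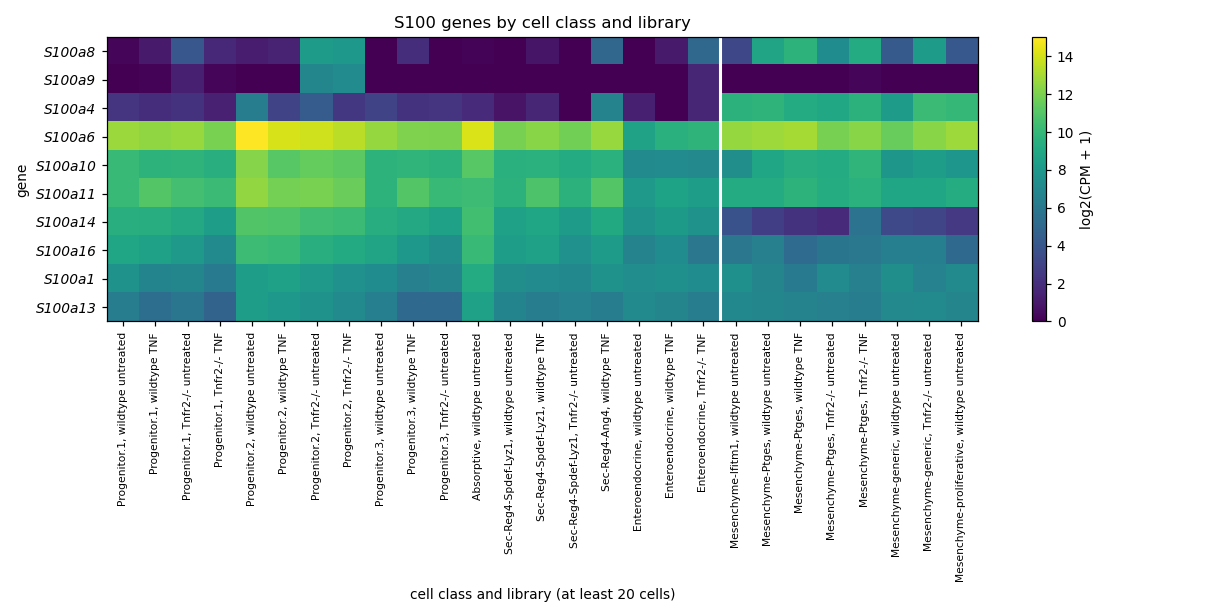
Level of each member in the 27 sums of a cell class in a library with at least 20 cells, as log2(CPM + 1). The white line divides 19 epithelial from 8 mesenchymal sums. S100a9 is above 20 CPM only in Progenitor.2 of the Tnfr2-/- libraries, S100a8 is highest there and in mesenchyme, and S100a4 (mostly low on the left) and S100a14 (low on the right) differ across the white line.

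The 24 cells with at least 10 S100a9 UMIs, all from Tnfr2-/- epithelium, were looked at one by one. They were picked by their S100a9 value, so what follows describes them and compares nothing by test. In the untreated library there were 5, of which 3 were Progenitor.2 and 2 Progenitor.1, and they held 95.5% of S100a9 and 48.1% of S100a8. With TNF there were 19, all Progenitor.2, which held 98.6% and 87.3%. Their median depth was 60376 and 37961 UMIs, against 33668 and 37708 in the other Progenitor.2 cells. Epcam, an epithelial adhesion protein, was found in every one of them. Of the 6 epithelial markers, Krt8, Cdh1 and Vil1 were at least 2-fold lower in the 5 untreated cells than in the other Progenitor.2 cells, and 0 were higher. Krt8 was at 2413 against 6156 CPM there. In the 19 TNF cells 0 of the 6 were higher or lower by as much. Ptprc, Csf3r, Tyrobp and Itgam of leukocytes and Pdgfra and Col1a2 of fibroblasts had no UMI in any. Other genes of these marker lists did. Csf1r had 2 UMIs in the 5 untreated cells and 31 in the 19 TNF cells, where it was at 41.2 CPM against 8.03 CPM in the other Progenitor.2 cells. Ly6g had 16 and 6 UMIs and was lower than in the other Progenitor.2 cells. Col3a1 and Vim had 2 UMIs each in the 19 TNF cells.

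Next to the other 697 Progenitor.2 cells of the Tnfr2-/- TNF library, the 19 cells held several genes of stratified and cornified epithelium at high levels. Genes were counted there only if they reached 20 CPM in the other cells, and of the 5273 such genes 3.93% were higher in the 19 cells by 2-fold or more and 18.2% were lower by as much. Of the epidermal differentiation complex, a gene cluster for the cornified envelope that also lies on chromosome 3, 5 of 10 were higher and 2 lower. Another 8 reached 20 CPM in the 19 cells alone and were not counted. Crct1, a cysteine-rich member of that complex, stood at 4452 CPM against 244 CPM and was found in all 19 cells. Of the stratified epithelial list 4 of 7 genes were higher and 0 lower, and 2 more reached 20 CPM in the 19 cells alone. Krt16, a keratin of stressed epidermis, stood at 2835 against 46.6 CPM and was found in 16 of the cells. Krt6b, one of those 2, stood at 1976 against 0.273 CPM, from 7 cells.

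Some of these sums were carried by single cells. Of the 3381 UMIs of Sprr2f, a small proline-rich envelope protein, 2086 came from the cell that was also richest in S100a8 and S100a9. Host-defence proteins went both ways, with 5 of 13 higher by 2-fold or more and 5 lower by as much. Slpi, a secreted protease inhibitor, stood at 8864 against 272 CPM (19 cells), and Lcn2, which binds bacterial siderophores, at 1916 against 38.6 CPM (15 cells). Car1, a carbonic anhydrase of colonic surface cells, was at 2.66 against 520 CPM, and Lypd8, which keeps flagellated bacteria from the mucosa, at 16.0 against 980 CPM. These last genes and Sprr2f were named after their values were seen.

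The sum over the 5 cells of the untreated library was set largely by 1 cell, which held 320572 of their 520924 UMIs (61.5%) but only 28 of their S100a9 UMIs. The 5 included 2 Progenitor.1 cells, of 60376 and 72967 UMIs, and the part of that class in what follows was not tested. Against the other 230 Progenitor.2 cells, 2.03% of 5553 genes were at least 2-fold higher and 18.3% lower, and without the deepest cell 4.48% and 18.9%. Of the epidermal differentiation complex 2 of 9 genes were higher and 2 lower, and of the stratified list 1 of 8 was higher, Krt6a, at 741 against 271 CPM, and 2 lower. Krt16 was at 173 against 257 CPM, and without the deepest cell at 444 CPM, so its direction turned with that cell. Without it Krt6a was at 1917 and Lcn2 at 2725 CPM. Of the 90 Krt16 UMIs 86 were in the cell richest in S100a9. Lcn2 stood at 1048 against 20.5 CPM, and 542 of its 546 UMIs were in 1 cell.

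The subunits were not always found together. Of the Tnfr2-/- epithelial cells with S100a8, 83 untreated and 158 with TNF, 17 and 37 also had S100a9 (20.5% and 23.4%). Of the cells with S100a9, 77.3% and 74.0% also had S100a8.

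**Figure D3:**
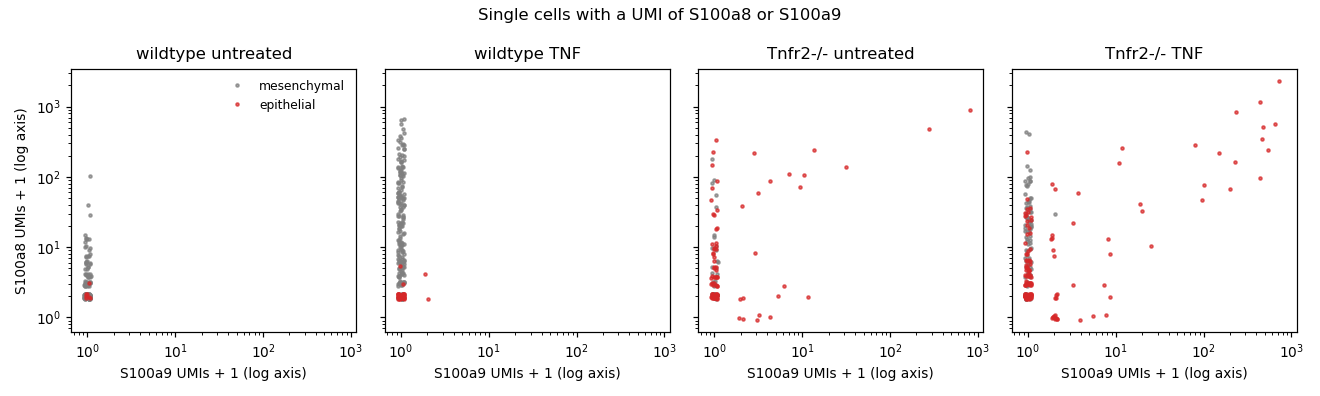
UMIs of S100a8 and S100a9 in each cell with a UMI of either gene, by library, as UMIs + 1 on log axes, with points spread slightly so that they do not hide each other. Mesenchymal cells (grey) line up at 0 S100a9 UMIs, apart from 1 cell of the Tnfr2-/- TNF library with 1, and cells high in both are epithelial cells (red) of the Tnfr2-/- libraries.

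Mesenchymal cells expressed S100a8 with almost no S100a9. Their sums held 562, 12162, 536 and 2915 S100a8 UMIs, or 16.1 CPM (14.8 to 17.5), 827 CPM (812 to 842), 246 CPM (226 to 268) and 611 CPM (589 to 634). S100a9 had 0, 0, 0 and 1 UMIs in the same cells. The zeros allow up to 0.0862, 0.204 and 1.38 CPM, so S100a9 was below the mesenchymal S100a8 level by a wide margin in every library.

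Within mesenchyme S100a8 was higher with TNF in both genotypes, by 5.59 in wildtype and 1.31 in Tnfr2-/- on the log2 scale. It was 1 of 2 members among 8 at least 2-fold higher in both pairs, where 2.77% of all 5956 genes were. The other was S100a10, and 0 of 8 were lower (3.51% of all genes). By genotype 0 of the 8 members were at least 2-fold higher (1.67% of all 5935 genes) or lower (1.40%) in both pairs, and S100a8 differed by 3.85 untreated and by -0.44 with TNF. In the wildtype TNF library the mesenchymal transcripts were spread over more cells than those of Tnfr2-/- epithelium. There 112 cells had at least 10 S100a8 UMIs, the top cell held 5.28% and 17 cells reached the midpoint of the sum. In Tnfr2-/- untreated and TNF libraries 43 and 98 mesenchymal cells had S100a8, against 83 and 158 epithelial cells. Shares after thinning were 4.02% (3.06 to 5.18), 40.3% (34.7 to 46.1), 27.9% (18.8 to 38.6) and 50.8% (41.6 to 60.1), and without thinning 12.8%, 65.7%, 47.8% and 80.3%.

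The mesenchymal classes differed between libraries, which touches this comparison. TNF-treated mesenchyme was almost wholly the class Mesenchyme-Ptges (304 of 306 and 122 of 122 cells), while that class had 34 of 1430 untreated wildtype cells and 37 of 90 untreated Tnfr2-/- cells. Within Mesenchyme-Ptges S100a8 was at 435, 831, 159 and 611 CPM. The 34 untreated wildtype cells had a median of 5755 UMIs and 16.7% mitochondrial UMIs, against 21965 to 48633 UMIs and 2.79% to 4.15% in the other libraries, and the part of this in the levels was not tested. The TNF difference there was 0.93 in wildtype and 1.94 in Tnfr2-/- on the log2 scale, so S100a8 was not counted in both pairs, and 0 of 8 members were higher (1.67% of all 5809 genes) or lower (1.39%). Of the 149 UMIs in untreated wildtype cells 105 came from 1 cell, and of the 132 in untreated Tnfr2-/- cells 82 did. The other classes of untreated wildtype mesenchyme held 8.39 CPM (Mesenchyme-Ifitm1), 18.3 CPM (Mesenchyme-generic) and 16.9 CPM (Mesenchyme-proliferative), and Mesenchyme-generic of untreated Tnfr2-/- cells held 307.5 CPM. The part of class make-up in the TNF difference was not tested further.

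In epithelium the TNF differences of calprotectin were not the same over all cells and within a class. Over all epithelial cells S100a8 was higher with TNF by 1.57 in Tnfr2-/- and S100a9 by 2.36 on the log2 scale, but Progenitor.2 was 233 of 1023 untreated and 716 of 858 TNF cells there. Within Progenitor.2 of Tnfr2-/- the differences were -0.29 for S100a8 and 0.36 for S100a9. In wildtype S100a8 differed by 1.20 but stayed under 20 CPM in both libraries. Of 7 members tested in both pairs, 0 were higher with TNF (0.920% of all 5545 genes) and 0 lower (0.0721%).

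S100a4, a metastasis-associated protein that binds non-muscle myosin and is a familiar fibroblast gene, was mainly mesenchymal in every library. Its mesenchymal level was 693, 606, 924 and 785 CPM, and its epithelial level 5.88, 5.61, 6.48 and 4.0 CPM. The log2 difference of mesenchyme over epithelium was 6.66, 6.52, 6.95 and 7.30, without overlap. S100a4 was the 1 of 8 members at least 2-fold higher in mesenchyme in all libraries (14.8% of all 5868 genes). S100a8 was also higher in mesenchyme in each library, by 3.89, 8.28, 1.75 and 1.49. It was not among the 8 because both sums of untreated wildtype were under 20 CPM. Classes were made from the same cells and genes, so this compares labels and is no test. The epithelial level was 0.849%, 0.926%, 0.701% and 0.509% of the mesenchymal one, above the highest marker in each library (0.218%, 0.317%, 0.0926% and 0.142%). In the few epithelial classes with more, single cells mattered: of 133 UMIs in Progenitor.2 of untreated wildtype, 95 came from 1 cell, and of 193 in untreated Tnfr2-/-, 135 did.

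S100a14, S100a16 and S100a11 were the 3 members at least 2-fold lower in mesenchyme in all libraries (10.4% of all genes). S100a14, a divergent member found mainly in epithelia, was at 946, 999, 688 and 1072 CPM in epithelium and at 10.8, 4.96, 5.97 and 51.1 CPM in mesenchyme. The 51.1 CPM of Tnfr2-/- TNF mesenchyme came with 587 CPM of epithelial markers, against 113 to 209 CPM in the other mesenchymal sums. S100a16, a widely expressed member, was at 681, 625, 359 and 517 CPM in epithelium and at 65.4, 36.8, 75.3 and 63.3 CPM in mesenchyme. S100a11, an annexin A1 partner, was at 1322, 2490, 1911 and 2759 CPM in epithelium and at 567, 832, 519 and 767 CPM in mesenchyme.

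S100a6 and S100a10 were high in both compartments. S100a6, or calcyclin, a marker of growing cells, was at 11163, 9565, 8313 and 10103 CPM in epithelium and at 5564, 8245, 4722 and 5124 CPM in mesenchyme. S100a10, or p11, which needs no calcium and holds annexin A2 in a tetramer at the plasma membrane, was at 1555, 1261, 1250 and 2116 CPM in epithelium. In mesenchyme S100a10 was at 202, 657, 435 and 891 CPM, higher with TNF by 1.70 in wildtype and 1.03 in Tnfr2-/- on the log2 scale. Within Mesenchyme-Ptges S100a10 was at 455, 659, 599 and 891 CPM.

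In epithelium these intracellular members differed by less than 2-fold between genotypes in most pairs. S100a1, best known from heart muscle, was at 334, 208, 149 and 176 CPM, and S100a13, which takes part in the release of FGF1 and interleukin 1 alpha, at 188, 123, 91.3 and 128 CPM. Both were over 2-fold lower in untreated Tnfr2-/- epithelium, by -1.16 and -1.04 on the log2 scale, where 3.59% of all genes were. With TNF their differences were -0.24 and 0.05. Absorptive cells, rich in both genes, were 319 of 1128 epithelial cells in untreated wildtype and 11 of 1023 in untreated Tnfr2-/-. Between these libraries S100a1 went from 203 to 116 CPM within Progenitor.1 and from 341 to 263 CPM within Progenitor.2. S100a13 went from 78.0 to 58.5 CPM and from 347 to 200.5 CPM. The part of class make-up in the differences was not tested. Over all epithelial cells the other 5 tested members differed by -0.92 to 0.53 untreated and by -0.27 to 0.75 with TNF.

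Within the progenitor classes the same members leaned lower in Tnfr2-/-. In Progenitor.1 the 7 members that reached 20 CPM had log2 differences from -0.80 to 0.31 untreated, where S100a11 was the only one above 0, and from -1.47 to -0.30 with TNF. In Progenitor.2 these 7 ranged from -1.06 to -0.37 untreated and from -0.98 to 0.11 with TNF, where S100a10 was the only one above 0. The untreated pair in Progenitor.2 rests on 62 wildtype cells, with a median of 15574.5 UMIs and 9.70% mitochondrial UMIs. The TNF pair in Progenitor.1 rests on 95 Tnfr2-/- cells. The part of these limits in the lean was not tested. None of the 7 reached 2-fold in both pairs of either class, against 0.647% of all genes lower in Progenitor.1 and 1.81% in Progenitor.2. S100a16 was the farthest in Progenitor.1, at 443, 382, 274 and 137 CPM. No member was at least 2-fold higher in both pairs in Progenitor.1 (0.367% of all genes).

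**Figure D4:**
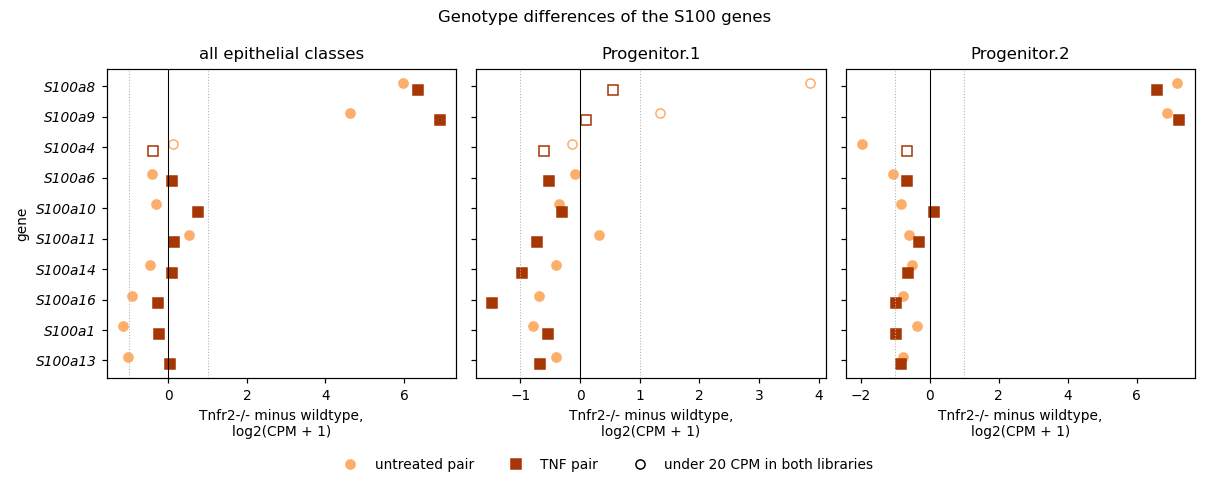
Tnfr2-/- minus wildtype for each member, as log2(CPM + 1), over all epithelial classes and within Progenitor.1 and Progenitor.2, for the untreated pair (circles) and the TNF pair (squares). Open symbols are under 20 CPM in both libraries, dotted lines are 2-fold, and the panels have separate axes. S100a8 and S100a9 stand to the right over all classes and in Progenitor.2, and most others lie left of 0 within a class.

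Between the progenitor classes, which were clustered on these cells, Progenitor.2 held more of the members. At least 2-fold higher in Progenitor.2 than in Progenitor.1 in all libraries were S100a6, S100a10, S100a13, S100a14 and S100a16, 5 of 7 tested, beside 6.52% of all 5598 genes. No member was lower, against 8.36%. In Progenitor.2 S100a6 was at 33000, 17793, 15854 and 11190 CPM and S100a10 at 5080, 2195, 2847 and 2377 CPM. S100a11 was higher in Progenitor.2 by 2.37, 0.90, 1.47 and 1.32 and S100a1 by 0.75, 1.77, 1.17 and 1.34 on the log2 scale, so that each fell short in 1 library. The untreated wildtype Progenitor.2 class was small (62 cells) and shallow, with a median of 15574.5 UMIs per cell against 33685 to 39167 in the other libraries. Its median mitochondrial share was 9.70%, against 4.21% to 6.14%, and the part of this in its high S100a6, S100a10 and S100a11 levels was not tested.

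The other epithelial classes had their own levels. In the 319 absorptive cells of untreated wildtype, S100a6 stood at 18180 CPM, S100a16 at 1140 CPM, S100a1 at 612 CPM and S100a13 at 387 CPM, the last 2 being the highest levels of those genes in a class of at least 20 cells. Enteroendocrine cells were low in the annexin partners. In their 3 sums of at least 20 cells S100a6 was at 398 to 861 CPM, S100a10 at 133 to 151 CPM and S100a11 at 279 to 410 CPM. The class Secretory-Reg4-Ang4 was found only in the wildtype TNF library (246 cells, a median of 1957.5 UMIs) and held S100a4 at 104 CPM, from 53 UMIs.

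The members' levels over the 27 sums of a class and library with at least 20 cells were set against each other by Pearson's r of log2(CPM + 1). These sums share libraries and classes, so r is a description. S100a10 and S100a11 had 0.90, S100a14 and S100a16 0.88, S100a6 and S100a10 0.82 and the neighbours S100a1 and S100a13 0.78. The ratio of S100a1 to S100a13 ranged from 0.699 to 3.33 around a median of 1.58, and it was highest in Progenitor.3 of untreated Tnfr2-/- cells (113 and 33.9 CPM).

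**Figure D5:**
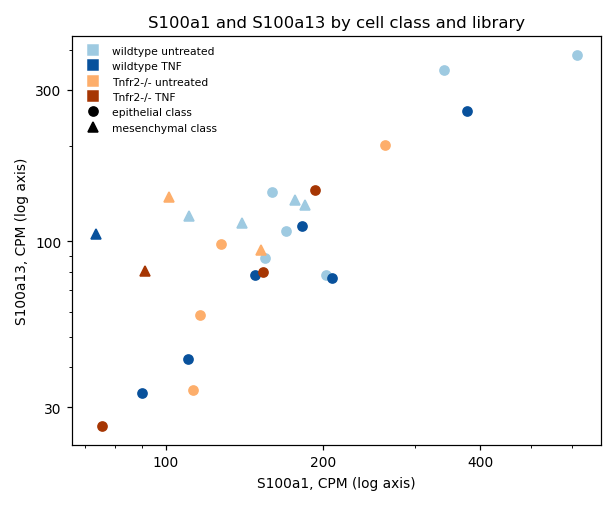
Levels of S100a1 and S100a13, which start head to head, in the same 27 sums, in CPM on log axes, with circles for epithelial and triangles for mesenchymal classes. Epithelial sums run along 1 band from Progenitor.1 of Tnfr2-/- TNF (75.5 and 26.1 CPM) to absorptive cells of untreated wildtype (612 and 387 CPM), and mesenchymal sums lie between 80.5 and 137 CPM of S100a13.

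Of 10113 genes with 20 CPM in at least 1 of these sums, those most like S100a8 were Tnfaip2 (0.86), Enc1 (0.85), Mt2 (0.85), Fxyd5 (0.84) and Nfkbiz (0.84). For S100a9 the nearest were Sprr2f (0.97), Krt6b (0.96) and Lce3b (0.94), a search added after the values were seen, and its r rests on the few sums where S100a9 was not 0. With TNF, Krt6b had 1486 UMIs in the 19 cells picked by S100a9 and 9 in the other Progenitor.2 cells, and Lce3b 135 and 250. Untreated, the 5 picked cells held 6 of Krt6b against 139, and 296 of Lce3b against 4. These r values therefore draw in part on the picked cells and are no separate support. For S100a10 and for S100a11 the nearest gene was Anxa2 (0.95 and 0.92).

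Partners of these proteins came from lists. Of the annexins and other intracellular partners, 12 could be tested in epithelium. In both pairs 1 was at least 2-fold higher in Tnfr2-/-, beside 1.13% of all genes. This was Anxa1, a calcium-dependent membrane binder, at 685, 810, 1555 and 2951 CPM. Anxa2, the partner of S100A10, was at 1422, 1491, 1125 and 2195 CPM. The list had median log2 differences of 0.20 untreated and 0.34 with TNF, beside 0.10 and -0.12 over all genes. None of the 12 was at least 2-fold different with TNF in both genotypes, in epithelium or in mesenchyme. Of all genes 0.920% and 2.77% were higher there, and 0.0721% and 3.51% lower.

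Calprotectin receptors differed little in epithelium. Of the 4 tested by genotype and 5 tested by TNF, 0 were counted. Of all genes 1.13% were higher and 1.41% lower by genotype there, and 0.920% and 0.0721% by TNF. In mesenchyme 2 of 5 were counted as higher with TNF, beside 2.77% of all genes. These were Cd14, a TLR4 co-receptor, at 8.76, 20.2, 5.05 and 22.8 CPM, and Alcam, a RAGE-like adhesion receptor, at 20.7, 67.4, 29.9 and 62.5 CPM. Of the transcription factors tied to calprotectin, 0 of 10 were counted by genotype and 0 of 11 by TNF in epithelium, beside the same shares. In mesenchyme Fosl1 was higher with TNF (9.54, 84.7, 24.8 and 127 CPM) and Fos lower (144, 55.3, 98.8 and 36.7 CPM), 2 of 12. Of all genes 2.77% were higher and 3.51% lower.

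Stratified and cornified epithelial genes were sparse over the whole epithelium. Of the epidermal differentiation complex 6 of 35 measured genes could be tested by genotype, and 1, Crct1, was higher in Tnfr2-/- in both pairs, at 4.91, 5.88, 83.2 and 287 CPM. Of the stratified list 2 of 6 were higher, Krt6a at 45.5, 19.1, 140 and 85.3 CPM and Krt16 at 4.09, 6.05, 54.7 and 92.4 CPM. The share over all genes was 1.13%. The medians of these lists, -0.72 and 0.74 for the first and -0.18 and 0.30 for the second, had opposite signs in the untreated and TNF pairs.

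Among host-defence proteins 3 of 12 were higher in Tnfr2-/- epithelium in both pairs, beside 1.13% of all genes. These were Lcn2 (2.44, 5.80, 21.3 and 69.3 CPM), the acute-phase protein Saa3 (15.2, 47.8, 69.4 and 427 CPM) and the oxidase Duox2 (4.23, 28.0, 20.6 and 65.2 CPM). In the untreated Tnfr2-/- library 542 of the 1079 epithelial Lcn2 UMIs were in 1 cell. Without the richest cell of each library Lcn2 there was at 10.6 CPM and no longer counted in both pairs, while Saa3 and Duox2 were. With TNF 5 of 11 were higher in both genotypes, beside 0.920% of all genes: Slpi, Saa3, Duox2, Nos2 and Pglyrp1. Nos2, the inducible nitric oxide synthase, was at 1.63, 139, 34.0 and 260 CPM. Lcn2 and Saa3 were also strong mesenchymal genes: epithelial Lcn2 was 0.161% to 1.78% of the mesenchymal level and Saa3 0.107% to 3.92%.

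Of the S100 genes that are no members, S100g, or calbindin D9k, was at 45.7, 18.7, 21.4 and 20.9 CPM in epithelium and at 121 CPM in the 319 absorptive cells of untreated wildtype. The remaining 6 were low. S100a3 was at 1.25 to 2.19 CPM and S100z at 0.987 to 2.77 CPM. S100a7a, the mouse relative of psoriasin, was at 0.159, 0.145, 0.731 and 2.69 CPM. S100a2, S100a5 and S100b were at 0.603 CPM or less, and in mesenchyme all 7 were under 5 CPM.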

How the data were processed

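RNA of single cells was counted in colonoid cultures of 2 genotypes without or with TNF. The authors deposited whole-number UMI counts per gene and cell, made with Cell Ranger 5.0.0 on mm10 per the submitters' processing notes. Per the methods, cells with fewer than 100 UMIs and doublets of epithelial and mesenchymal cells had been removed, and no further doublet caller was run. The deposited classes were used as given.

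For each library, UMIs were added up by class, over all epithelial classes and over all mesenchymal classes, and scaled to the UMI total of those cells (CPM). Differences are of log2(CPM + 1), which understates ratios of low genes. A gene was counted at 2-fold with the same sign in both pairs, or in all 4 libraries, with 20 CPM in at least 1 of the compared sums. With 1 library per group no test was made. Intervals are exact Poisson or Clopper-Pearson (95%) and cover counting error only, and a 0 is given the limit of 3 counts. A repeat of the counting on simulated sums with known changes was checked. Symbols came from the deposited gene table, and positions from GENCODE M21, which matched 30240 of 30360 identifiers.

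The members and lists were chosen with earlier results of these data known. Named genes are the members, the other S100 genes, genes of the lists past the limit or, up to 4 per list, highest in mean CPM, and the 5 genes most like S100a8. Others are said to have been named after their values were seen. The alternatives were a pseudocount of 0.1 or 10 CPM, TMM factors (edgeR 4.0.16, used for nothing else) and median-of-ratios factors, no CPM minimum, limits of 1.5-fold and 3-fold, a minimum of 2000 UMIs per cell, means over cells, other sets of classes and removal of cells with markers of the other compartment. Removal of the richest or deepest cells, of cells with shared barcodes and of 1 library was added after the data were seen. Python 3.11.15, numpy 2.4.6, scipy 1.17.1 and R 4.3.3 were used.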

Additional observations from a re-analysis of the deposited data

Results flagged for a closer look

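S100a13, S100a10, S100a1, S100a16 and S100a6 had epithelial TNF differences of opposite sign in the 2 genotypes, lower with TNF in wildtype and higher in Tnfr2-/-. Each genotype had 1 library per treatment, so the difference between the genotypes was not tested. On the log2 scale it came to 1.09 for S100a13 (-0.61 in wildtype, 0.48 in Tnfr2-/-), 1.06 for S100a10 (-0.30, 0.76), 0.92 for S100a1 (-0.68, 0.24), 0.65 for S100a16 (-0.12, 0.52) and 0.50 for S100a6 (-0.22, 0.28). Progenitor.2, richer in these genes than Progenitor.1, was 716 of 858 epithelial cells in the Tnfr2-/- TNF library and 233 of 1023 in the untreated one. In untreated wildtype, absorptive cells held more S100a1 and S100a13 than Progenitor.2 (612 against 341 CPM and 387 against 347 CPM). They held less S100a6, S100a10 and S100a16. Absorptive cells were 319 of 1128 epithelial cells in untreated wildtype and 19 of 1163 in wildtype with TNF. Within Progenitor.1 of Tnfr2-/- all 7 tested members were lower with TNF, with differences from -1.13 to -0.25. Within Progenitor.2 of Tnfr2-/- 8 of 9 were lower and S100a9 alone was higher. In wildtype 6 of 7 were lower in Progenitor.1 and 7 of 8 in Progenitor.2. The part of class make-up in the differences over all epithelial cells was not tested. The cells without a class, which enter no comparison, held 6 UMIs of S100a8 in the untreated wildtype library (31 cells, 2.86 CPM).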

How the results depend on the processing

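No paired analysis was possible because each group had a single library, numbered 1. Of 108 alternative counts of members 101 were within 1.5 times the reported count. Counts reported as 0 (lower by genotype, higher and lower with TNF, lower in Progenitor.2) are included, and a 0 that stayed 0 is among the 101. By genotype the 2 members higher in Tnfr2-/- epithelium became 1 when all cells of a library were summed (S100a9) or the top cell of each library was left out (S100a8), and 0 without the top 10 cells. With TNF 0 became 1 (S100a8) without a CPM minimum and with all cells summed. The 1 member higher in mesenchyme became 2 (S100a4 and S100a8) without a CPM minimum, and the 5 higher in Progenitor.2 became 1 (S100a13) at 3-fold. Of 1400 alternative differences of single members 1232 stayed near the reported value and 167 moved farther from it. A reversal was called only where the reported difference was 2-fold or more, so smaller ones could change sign without being called. The 1 called was S100a8 with TNF in Tnfr2-/- epithelium, which went from 1.57 to -0.35 when Progenitor.1 and Progenitor.2 had equal weight. Of 7 genes named from the lists, Lcn2 alone lost its count without the richest cell of each library, at 10.6 CPM in untreated Tnfr2-/- epithelium. The cause of these changes was not tested beyond what each alternative leaves out or adds.

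Shares of cells moved with depth. Without thinning and at 2000 UMIs they were, for S100a8 in mesenchyme, 12.8% and 2.45%, 65.7% and 34.7%, 47.8% and 15.9%, and 80.3% and 36.1%. In epithelium they were 8.11% and 2.67% in untreated Tnfr2-/- and 18.4% and 5.13% in Tnfr2-/- TNF cells. The wildtype TNF value was 5.42% without thinning and the untreated wildtype value 0% at 2000 UMIs. S100a9 was found in 2.15% and 5.83% of Tnfr2-/- epithelial cells without thinning.

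Of 100 alternative counts over all genes 68 were within 1.5 times the reported count. The 64 genes higher and 80 lower by genotype became 204 and 261 without a CPM minimum, 232 and 231 at 1.5-fold and 21 and 31 at 3-fold. The higher count became 32 with a pseudocount of 10 CPM and 38 with equal weights of Progenitor.1 and Progenitor.2, and the lower count became 42 over the 3 progenitor classes and 206 over all cells. By TNF, 51 higher and 4 lower became 131 and 9 without a minimum, 193 and 43 at 1.5-fold, 14 and 0 at 3-fold, 131 and 11 over the 3 progenitor classes, 18 and 25 with equal weights and 80 and 8 over all cells, and the lower count became 0 with a pseudocount of 10 CPM. Of Progenitor.2 against Progenitor.1, 365 higher and 468 lower became 639 and 927 without a minimum, 752 and 1045 at 1.5-fold and 138 and 185 at 3-fold, and the lower count became 308 with a pseudocount of 10 CPM. Of mesenchyme against epithelium, 867 and 613 became 1948 and 1363 without a minimum.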
